A study of Bos taurus with 20 samples.

Results

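The enzymes of de novo fatty acid synthesis were examined in the back muscle of cattle as 7 genes, ACLY, ACSS2, PGD, ACACA, FASN, SCD and THRSP. They were measured by every probe set whose platform annotation named exactly 1 of these symbols. This rule found 8 of the 24016 probe sets that were not array controls, 1 probe set for each gene and a pair for ACACA, and all 8 were bright enough to be tested. The brighter probe set of ACACA over all arrays is called its main probe set here, and the dimmer its second.

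Total RNA of Musculus longissimus dorsi, a long back muscle, was measured on Affymetrix arrays for cattle, with 1 array per bull. The 20 bulls were F2 crossbreds of dairy (Holstein) and beef (Charolais) cattle. The groups were 10 bulls whose muscle was high in intramuscular fat (IMF), the fat stored between the muscle fibres, and 10 whose muscle was low in it, and the labels give neither ages nor IMF percentages. In each group 5 sample titles have an S before the animal number and 5 have not, a mark that the labels leave unexplained. Animals are called S animals or other animals after their titles, and the 2 kinds of title are called the title series.

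De novo lipogenesis builds fatty acids from acetyl-CoA. ACLY makes cytosolic acetyl-CoA from citrate and ACSS2 makes it from acetate, the main carbon source for fat in ruminants. PGD, an enzyme of the pentose phosphate pathway, supplies NADPH. ACACA turns acetyl-CoA into malonyl-CoA, FASN assembles palmitate, and SCD places a double bond in the finished chain. THRSP, also called Spot 14, is no enzyme, but a protein of lipogenic tissues that promotes fatty acid synthesis in rodents. In ruminants the pathway is known to be most active in adipose tissue, and muscle holds adipocytes between its fibres.

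Arrays had median intensities between 51.6 and 67.6. Skeletal muscle markers were bright in every animal, with a mean level over 7 markers of 13.72 to 13.93 log2 units in high IMF animals and 13.80 to 13.97 in low IMF animals. Liver transcripts stood out on 4 arrays, where ALB, the serum albumin gene, had intensities of 4871, 11889 and 59753 in high IMF animals and 83307 in a low IMF animal, while the other 16 arrays had 245 to 469. The 3 high IMF animals were S animals numbered 6, 8 and 10 in that group, and the low IMF animal was number 3, one of the other animals. The comparisons and correlations of the 7 genes are given with and without these arrays. The title series also differed in bacterial control transcripts added to the samples, with mean BioB intensities of 204 to 355 in S animals and 397 to 482 in other animals, so that the title series and array handling cannot be told apart.

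The enzymes that supply acetyl-CoA and NADPH are ACSS2, ACLY and PGD. ACSS2 intensities in S animals, from highest to lowest, were 2708, 1232, 1091, 838 and 634 in high IMF muscle, against 762, 667, 630.1, 599.9 and 599.8 in low IMF muscle. In other animals they were 565, 535, 377, 374 and 271 in high IMF, against 384, 305, 301, 257 and 250.3 in low IMF. Every S animal lay above every other animal, and within each title series the IMF groups overlapped, with 5 of 5 high IMF animals above the low IMF median among S animals and 4 of 5 among other animals.

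ACLY intensities in S animals were 858, 535, 367, 340.1 and 257 in high IMF, against 286, 259.7, 239.6, 235 and 188 in low IMF. In other animals ACLY had 278, 261, 253, 168 and 161 in high IMF, against 236, 207, 188, 159 and 135.9 in low IMF. The IMF groups overlapped in both title series. Among S animals 5 of 5 high IMF animals lay above the low IMF median, and 3 of 5 among other animals.

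PGD intensities in S animals were 642, 432, 378, 355 and 289.6 in high IMF, against 378, 289, 244, 243 and 225 in low IMF. In other animals they were 223, 221, 208, 187 and 176 in high IMF, against 224, 205, 195, 173 and 124 in low IMF. The lowest S animal, at 224.9, was just above the highest of the other animals, at 224.1. IMF groups overlapped in both series.

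ACACA, the enzyme of the committed step, had the smallest range of the 7 genes. On the scale of log2(intensity + 1), its main probe set gave 8.60, 8.36, 8.25, 8.12 and 7.95 in high IMF S animals, against 8.28, 8.16, 8.16, 7.94 and 7.86 in low IMF S animals. In other animals it gave log2 values of 7.72, 7.55, 7.10, 7.04 and 6.81 in high IMF, against 7.38, 7.02, 7.02, 6.85 and 6.63 in low IMF. All S animals lay above all other animals, and the IMF groups overlapped in both series. The second ACACA probe set did not separate the title series, with log2 values of 6.70 to 7.58 in S animals and 7.08 to 8.10 in other animals.

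FASN intensities in S animals were 7005, 3649, 2985, 1909.8 and 1603 in high IMF, against 2765, 1651, 1465, 1407 and 901 in low IMF. In other animals FASN had 1758, 1741, 1143, 603 and 519.6 in high IMF, against 1701, 750.0, 708, 516 and 387 in low IMF. The IMF groups overlapped in both series, and among other animals the highest low IMF animal nearly reached the highest high IMF animal.

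SCD was the only probe set of the 8 whose high IMF S animals all lay above all low IMF S animals. Its intensities in S animals were 9691, 6364, 4331, 3273 and 2951 in high IMF, against 2797, 2017, 1561, 1154 and 1108 in low IMF. In other animals they were 4507, 3307, 1677, 1039 and 820.0 in high IMF, against 2456, 1861, 1141, 963 and 741 in low IMF, and these groups overlapped. Over all probe sets tested, 0.153% separated the IMF groups of the S animals in this direction.

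THRSP varied most between animals. In S animals THRSP intensities were 3107, 1186, 677, 363 and 132 in high IMF, against 412, 160.0, 73.6, 58.8 and 16.1 in low IMF. In other animals they were 491, 161, 100.1, 60.4 and 59.8 in high IMF, against 79.4, 58.6, 25.1, 16.7 and 12.6 in low IMF. In both series all 5 high IMF animals lay above the low IMF median, with overlap between the groups. The brightest animal had 247.6 times the intensity of the dimmest, and this ratio was 18.1 for FASN, 13.1 for SCD, 10.8 for ACSS2, 6.31 for ACLY, 5.19 for PGD and 3.93 for the main probe set of ACACA. The same S animal, number 10 of the high IMF group, was the highest of all 20 for THRSP, FASN, SCD, ACSS2, ACLY and PGD, and its array is among those with high ALB. The plot of the enzymes in each animal shows these values.

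**Figure D1:**
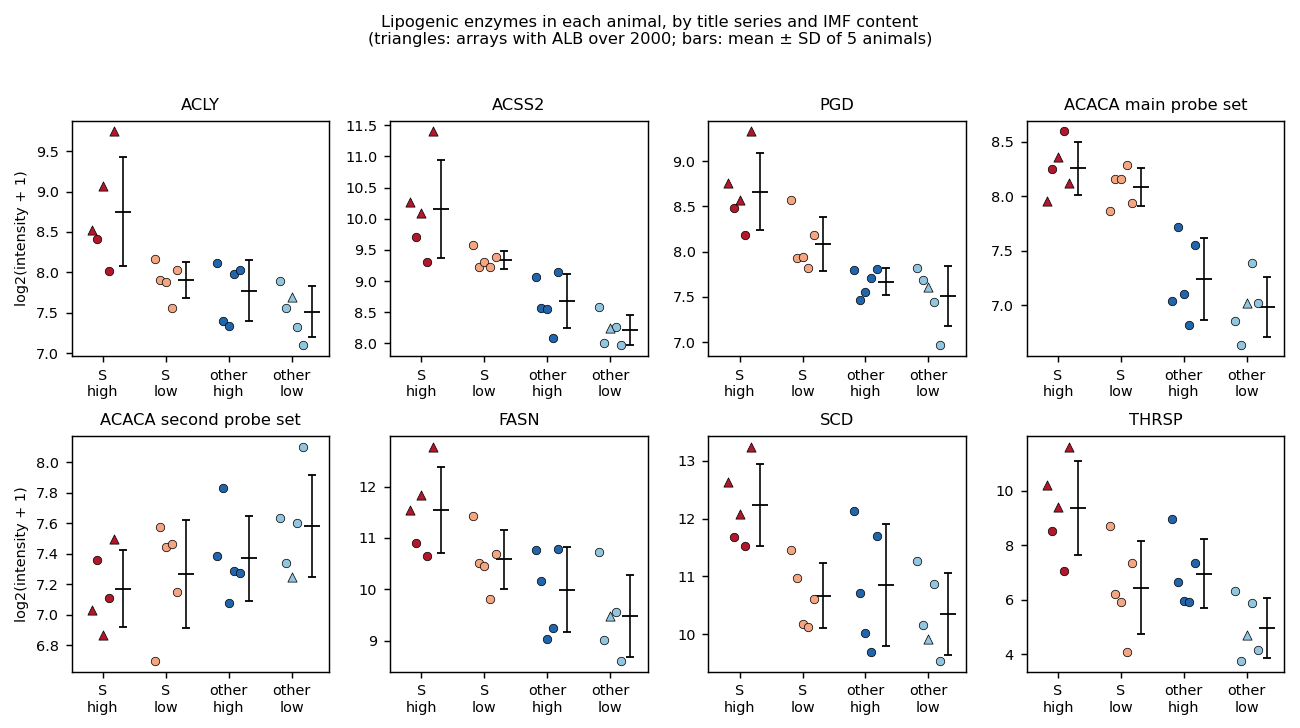
Values of the 8 probe sets in each animal as log2(intensity + 1), by title series and IMF content (S high, S low, other high, other low), with the mean ± SD of the 5 animals of each set as bars. Triangles are the 4 arrays with ALB over 2000, and the S animals lie above all other animals for ACSS2, PGD and the main ACACA probe set.

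High and low IMF muscle were compared to ask how fat content goes with the expression of these genes. High IMF animals had higher mean values than low IMF animals for 7 of 8 probe sets, and none passed limma's test over 14409 probe sets (lowest adjusted p = 0.9997). All differences here are on the scale of log2(intensity + 1), which slightly understates changes at low intensities. THRSP had intensities down to 12.55, where precision is limited too. Of all probe sets tested, 0% passed in either direction, and 239 had an unadjusted p under 0.05. Because the muscle was taken as a whole, a difference in the number of cells of a type and a difference in RNA per cell cannot be told apart.

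THRSP had the largest positive difference of the 14409 probe sets, with a mean of 8.16 ± 1.90 among high IMF animals and 5.71 ± 1.57 among low IMF animals (SD, n = 10 each), a difference of 2.45 (SE 0.71). Without the 4 arrays with high ALB and with the title series as covariate, its difference was at rank 2. Over all arrays SCD came at rank 16, FASN at rank 30, ACSS2 at rank 39, ACLY at rank 57, PGD at rank 140 and ACACA at rank 527. Without the 4 arrays and with the covariate, SCD was at rank 36, FASN at 155, ACSS2 at 218 and ACLY at 323. PGD was then at rank 828 and ACACA at 342. SCD averaged 11.54 ± 1.12 in high IMF and 10.51 ± 0.62 in low IMF, a difference of 1.04 (SE 0.37). FASN averaged 10.77 ± 1.13 in high IMF and 10.03 ± 0.88 in low IMF, a difference of 0.74 (SE 0.42). ACSS2 averaged 9.42 ± 0.98 in high IMF and 8.78 ± 0.62 in low IMF, a difference of 0.64 (SE 0.34). ACLY averaged 8.26 ± 0.73 in high IMF and 7.71 ± 0.33 in low IMF, a difference of 0.55 (SE 0.24). PGD averaged 8.16 ± 0.61 in high IMF and 7.80 ± 0.43 in low IMF, a difference of 0.37 (SE 0.22). The main ACACA probe set differed by 0.22 (SE 0.26) and the second by -0.15 (SE 0.14). The median difference of the 7 genes was 0.64, and it was -0.03 over all probe sets tested.

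At an unadjusted p under 0.05, THRSP, SCD and ACLY were higher in high IMF, 3 of 8 probe sets, where 0.632% of all probe sets were. With the title series as a covariate the differences are the same and their errors smaller, and 6 of 8 probe sets were below this limit, against 2.03% of all. They were THRSP (p = 0.000421), ACSS2 (p = 0.00335), SCD (p = 0.00488), ACLY (p = 0.00718), PGD (p = 0.0150) and FASN (p = 0.0260), all unadjusted from limma. None passed after adjustment over the 14409 probe sets, with 0.505 as the lowest adjusted p among the 8.

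Within the title series the direction was the same for each of the 8 probe sets. Among S animals the difference of high minus low IMF was 2.91 for THRSP, 1.57 for SCD, 0.96 for FASN, 0.84 for ACLY, 0.81 for ACSS2, 0.58 for PGD and 0.18 for ACACA. In other animals it was 1.995 for THRSP, 0.50 for SCD, 0.52 for FASN, 0.26 for ACLY, 0.47 for ACSS2, 0.16 for PGD and 0.26 for ACACA. The median over the 7 genes was thus 0.84 in S animals, against -0.08 over all probe sets, and 0.47 in other animals, against 0.01 over all. In S animals 6 of 8 probe sets had an unadjusted p under 0.05 and were higher in high IMF, as 1.36% of all probe sets were, and in other animals 2 of 8 (THRSP and ACSS2), as 2.57% of all were. Within each series 0 of 8 passed after adjustment, with a lowest adjusted p of 0.624 in S animals and 0.9905 in other animals.

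The differences were larger among S animals for 6 of the 7 genes, and the difference itself did not pass a test for any. In the interaction of IMF and title series, SCD had an estimate of 1.06 (SE 0.63, adjusted p = 0.866) and ACLY 0.58 (SE 0.36, adjusted p = 0.866), as S minus other animals. THRSP had 0.91 (SE 1.19, adjusted p = 0.907). Without the 4 arrays with high ALB, 3 of which are high IMF S animals, the interaction had the opposite sign for THRSP (-0.60), FASN (-0.33), ACSS2 (-0.31), ACLY (-0.0039) and the main ACACA probe set (0.073), and none passed. At an unadjusted p under 0.05 the interaction over all arrays called 0 of 8, against 5.34% of all probe sets.

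Liver transcripts were unevenly spread over these groups. The mean level over 6 liver markers ran from 6.03 to 12.26 in high IMF S animals and from 5.77 to 6.55 in low IMF S animals. It ran from 6.13 to 6.51 in other high IMF animals and from 6.30 to 12.10 in other low IMF animals. Without the 4 arrays with high ALB and with the title series as covariate, the difference was 1.70 (SE 0.62) for THRSP, 0.61 (SE 0.36) for SCD, 0.39 (SE 0.33) for FASN, 0.35 (SE 0.15) for ACSS2, 0.31 (SE 0.15) for ACLY, 0.21 (SE 0.13) for PGD and 0.30 (SE 0.14) for ACACA. THRSP and ACSS2 were then below an unadjusted p of 0.05, 2 of 8 probe sets, against 1.8% of all. Without the high IMF S animal number 10 alone, the difference among S animals was 1.32 for SCD, 0.59 for ACLY, 0.65 for FASN, 0.50 for ACSS2 and 0.41 for PGD.

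**Figure D2:**
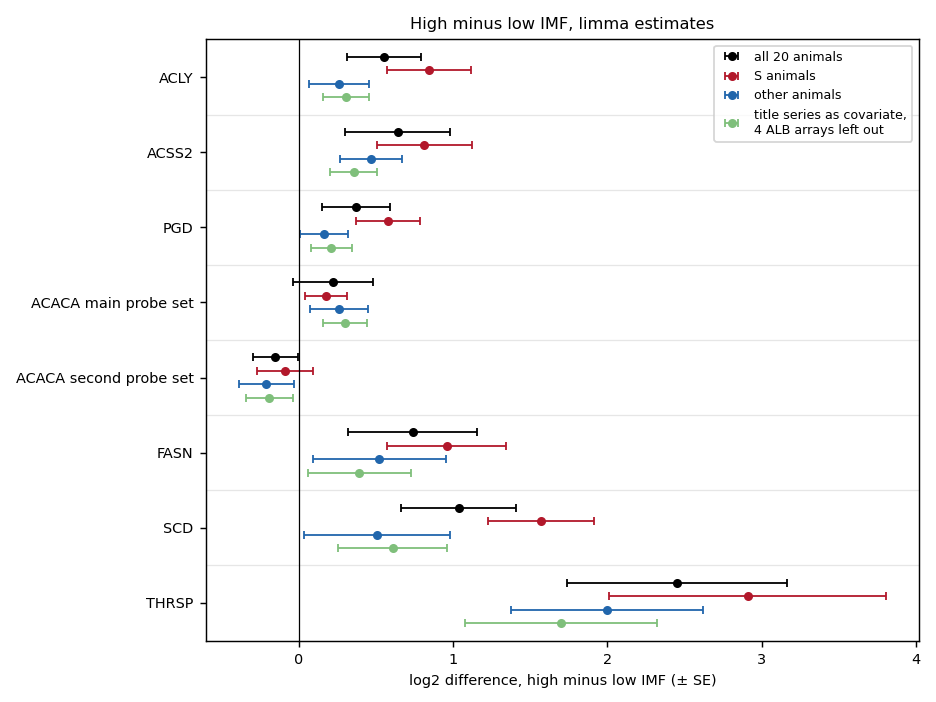
Difference of high minus low IMF for the 8 probe sets on the log2 scale (points, with SE as bars) in all 20 animals, in S animals and in other animals. The last set is without the 4 arrays with high ALB and with the title series as covariate. THRSP lies farthest to the right in each, and the second ACACA probe set lies below 0 in each.

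Adipocyte markers differed in the same direction, and none passed after adjustment. Of 15 markers 13 were on the array and 11 tested, of which 9 were higher in high IMF on average, and their mean level ran from 7.75 to 10.43 in high IMF animals and from 7.03 to 9.56 in low IMF animals. The median difference of the 11 markers was 0.66, and the lower ones were CFD (-0.22, SE 0.23) and LPL (-0.03, SE 0.29). FABP4, the fatty acid binding protein of adipocytes, differed by 1.65 (SE 0.65) and CIDEC, a protein of the lipid droplet, by 1.94 (SE 0.67), the largest of the 11. Without the 4 arrays with high ALB and with the title series as covariate, FABP4 differed by 1.07 (SE 0.66) and CIDEC by 1.40 (SE 0.62). The median of the 11 markers was then 0.34. Leaving out these arrays makes the title series uneven between the IMF groups, and the levels that follow are not adjusted for it. The mean level of the markers ran from 7.75 to 8.87 in high IMF animals (8.24 ± 0.40, SD, n = 7). In low IMF animals it ran from 7.03 to 9.56 (7.98 ± 0.74, SD, n = 9). ADIPOQ and LEP, the genes of the hormones adiponectin and leptin, were too dim to be tested. The level of adipocyte markers as a part of the differences of the 7 genes was not tested.

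S and other animals were compared because the title series divides the arrays more than IMF does. S animals had higher values than other animals for all 7 genes, with IMF as a covariate, and 7 of 8 probe sets rose by limma's test. The background is high, since 33.4% of all probe sets were higher and 34.8% lower in S animals by the same test, 9838 of 14409 in all. The median over the 7 genes was 1.06, and it was -0.0025 over all probe sets. The mean level of the adipocyte markers ran from 7.53 to 10.43 in S animals and from 7.03 to 8.69 in other animals, and from 7.53 to 9.56 in S animals and from 7.03 to 8.69 in other animals without the arrays with high ALB. By the same test 9 of the 11 tested markers were higher in S animals and 2 lower, CD36 (-1.20) and LPL (-0.73). Without the arrays with high ALB 6 were higher and 2 lower, and the shares of all probe sets are not given here for that fit. The part of the marker level in these differences was not tested.

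THRSP averaged 7.90 ± 2.23 in S animals and 5.97 ± 1.53 in other animals (SD, n = 10 each), and rose by 1.94 (SE 0.59, adjusted p = 0.00619). FASN averaged 11.06 ± 0.85 in S animals and 9.73 ± 0.82 in other animals and rose by 1.33 (SE 0.31, adjusted p = 0.000730). ACSS2 averaged 9.75 ± 0.68 in S animals and 8.45 ± 0.41 in other animals and rose by 1.30 (SE 0.19, adjusted p = 5.93e-06). The other genes that passed were ACACA by its main probe set with 1.06 (SE 0.12), SCD with 0.85 (SE 0.33), PGD with 0.79 (SE 0.14) and ACLY with 0.69 (SE 0.19). The second ACACA probe set differed by -0.26 (SE 0.13, adjusted p = 0.0804). The probe sets of ACACA thus differed in sign, and the files do not say which part of the transcript each probes.

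Separation was complete for 3 of 8 probe sets, ACSS2, PGD and the main one of ACACA, where 10.4% of all probe sets had every S animal above every other animal. The share of the variation between animals that went with the title series was 79.1% for the main ACACA probe set, 59.6% for ACSS2, 55.4% for PGD, 41.5% for FASN, 32.4% for ACLY, 22.2% for THRSP and 18.0% for SCD. For the second ACACA probe set, which differed in the opposite direction, this share was 16.9%. The share that went with IMF was 3.37% for the main ACACA probe set, 5.88% for its second, 14.4% for ACSS2, 12.1% for PGD, 12.8% for FASN, 20.97% for ACLY, 35.6% for THRSP and 26.7% for SCD. IMF took the larger share for THRSP and SCD, and the title series for the other 5.

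Among high IMF animals alone, 7 of 8 probe sets rose in S animals, where 22.7% of all probe sets did. THRSP rose by 2.39 (adjusted p = 0.0264), SCD by 1.38 (adjusted p = 0.0317) and ACLY by 0.98 (adjusted p = 0.0178). Among low IMF animals alone, where 1 array of the other animals and no S array had high ALB, 4 of 8 probe sets rose in S animals, FASN, PGD, ACSS2 and the main one of ACACA, and 28.1% of all probe sets did. In these animals SCD differed by 0.32 (SE 0.34, adjusted p = 0.442), THRSP by 1.48 (SE 0.75, adjusted p = 0.111) and ACLY by 0.39 (SE 0.16, adjusted p = 0.0557). Without the 4 arrays with high ALB, THRSP differed by 1.18 (adjusted p = 0.108) and SCD by 0.42 (adjusted p = 0.312), and the other 5 kept their calls. The share of all probe sets higher in S animals was 33.4% over all arrays, and it is not given here without the 4. The SCD call was also lost without high IMF animal 3, 4 or 10, with differences of 0.72, 0.68 and 0.70. Without high IMF animal 10 the second ACACA probe set fell by 0.30 in S animals (adjusted p = 0.0481).

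**Figure D3:**
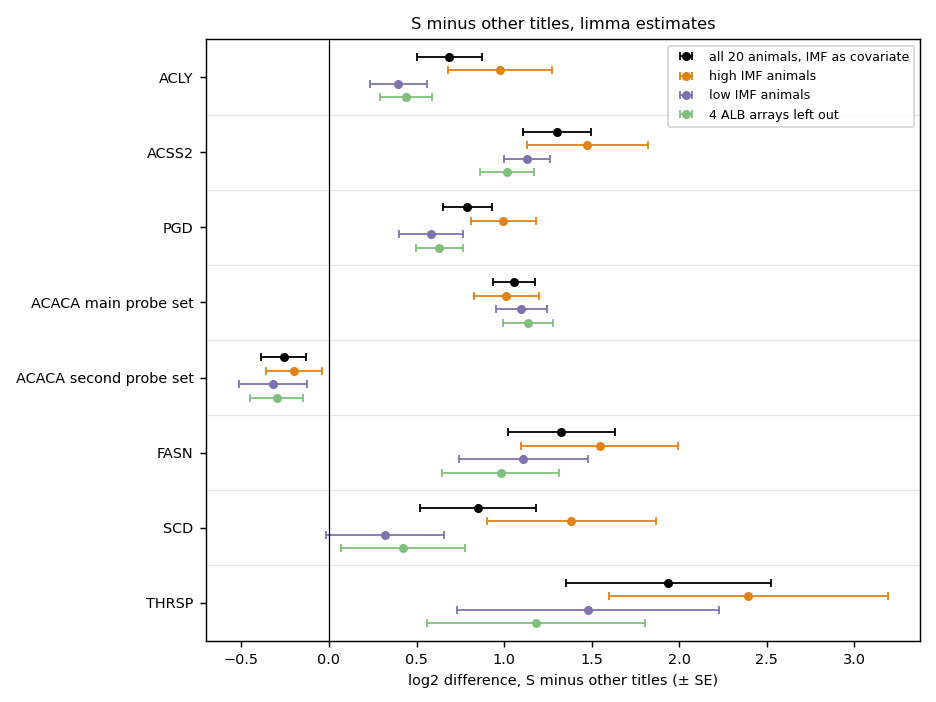
Difference of S minus other animals for the 8 probe sets on the log2 scale (points, with SE as bars) in all 20 animals with IMF as a covariate, in high IMF animals, in low IMF animals and without the 4 arrays with high ALB. The main ACACA probe set lies near 1 in all 4, while SCD runs from 0.32 in low IMF animals to 1.38 in high IMF animals.

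Within each title series the genes were correlated over its 10 animals, to see which vary together. The 42 relations, 21 pairs in 2 series, were tested by two-sided permutation with 100000 resamples and adjusted together. In S animals ACLY, ACSS2, PGD, FASN, SCD and THRSP formed a tight set, with Pearson r from 0.874 to 0.966 and Spearman rho from 0.903 to 0.988 over their 15 pairs. All 15 pairs passed (permutation p from 2e-05 to 0.00029, adjusted p from 0.000315 to 0.000761). The tightest pair by r was THRSP with PGD, at r of 0.966 and rho of 0.976. By rho the tightest were THRSP with FASN and FASN with ACLY, each at 0.988. Without the 2 animals farthest from the median on the x axis, r lay between 0.797 and 0.988. After subtraction of the IMF group means, r lay between 0.770 and 0.940 and all 15 pairs passed. Permutations after this subtraction ran over both IMF groups together and not within each, so their p-values may be too small.

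In other animals the same 6 genes had r from 0.512 to 0.917 and rho from 0.515 to 0.927, and 8 of 15 pairs passed (permutation p from 0.00014 to 0.0233 and adjusted p from 0.000485 to 0.0425). The passing pairs joined THRSP, FASN, SCD and ACSS2 with each other, in all 6 ways, and PGD with ACLY and FASN. FASN with PGD passed least clearly (r of 0.659, adjusted p = 0.0425 by permutation), and did not pass by rho (0.612, adjusted p = 0.110 by permutation). After subtraction of the IMF group means, and likewise without the array with high ALB, 7 of 15 pairs passed, and FASN with PGD was the pair lost. FASN and SCD had r of 0.917 and rho of 0.867 (permutation p of r = 0.000320, adjusted p = 0.000791), and PGD and ACLY had r of 0.858 and rho of 0.891. THRSP and PGD, the tightest pair by r in S animals, had r of 0.512 here (permutation p = 0.140, adjusted p = 0.195). Without the 2 animals farthest from the median, r lay between 0.235 and 0.885, and 5 of the 15 pairs passed. The difference in r between the title series was not tested. Without the arrays with high ALB, r in the remaining 7 S animals lay between 0.671 and 0.950, and 9 of 15 pairs passed.

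ACACA stood outside this set. With the other genes, the main ACACA probe set had r from -0.278 to -0.049 in S animals and from -0.166 to 0.489 in other animals. None of these 12 relations passed (lowest adjusted p = 0.528 in S animals and 0.201 in other animals). After subtraction of the IMF group means, r in S animals lay between -0.862 and -0.511, and the relations with THRSP, PGD and SCD passed by permutation (adjusted p = 0.00359, 0.0107 and 0.0261). These permutations also ran over both IMF groups together, so the p-values, here and with an animal left out, may be too small. With each S animal left out in turn, only the relation with THRSP passed every time (r from -0.927 to -0.801). Without high IMF animal 9 neither PGD (r of -0.694, adjusted p = 0.0677 by permutation) nor SCD (r of -0.671, adjusted p = 0.0829) passed, and SCD did not pass without low IMF animal 6 or 9 (adjusted p = 0.0721 and 0.0566). Without high IMF animal 6 all 6 relations passed. Within high IMF S animals, number 9 had the most ACACA and the least THRSP, FASN, SCD, ACLY, ACSS2 and PGD, and number 9 of the low IMF S animals had the most ACACA too, with the least of THRSP, FASN, SCD, ACLY, ACSS2 and PGD. The array of high IMF animal 9 had the largest share of values at 0 of all 20 (1.05%), the lowest BioB intensity (203.6) and the lowest ratio of 3′ to 5′ actin signal (0.601), and the part of array quality in these relations was not tested. The probe sets of ACACA had r of 0.210 with each other in S animals (permutation p = 0.560) and 0.228 in other animals (permutation p = 0.529).

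**Figure D4:**
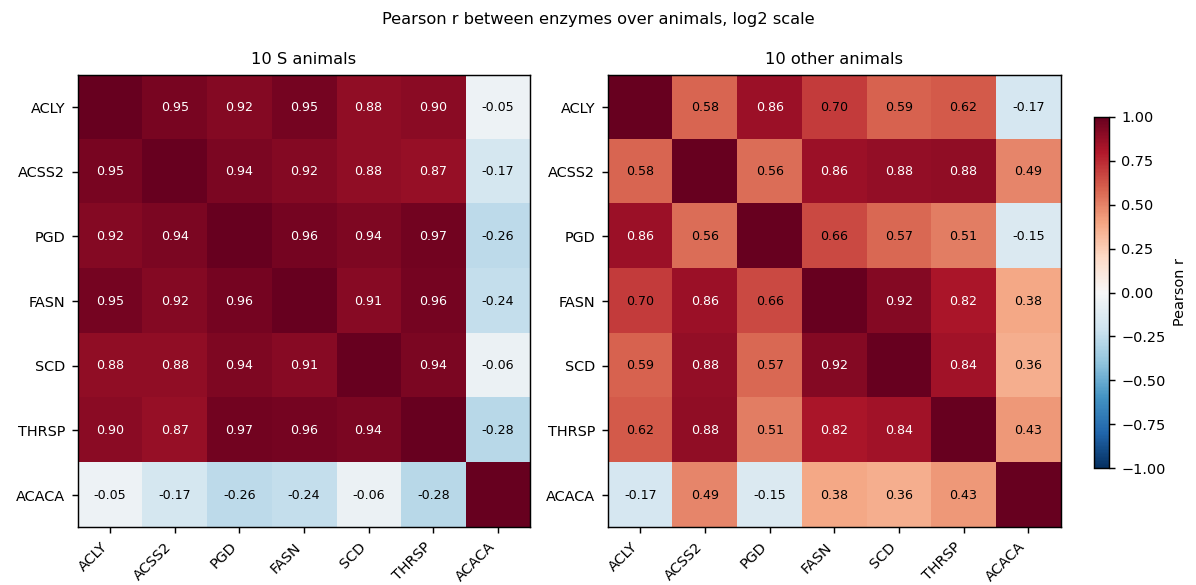
Pearson r between the 7 genes over the 10 S animals and over the 10 other animals, on the log2 scale, with ACACA by its main probe set. The 15 pairs without ACACA lie between 0.874 and 0.966 in S animals and between 0.512 and 0.917 in other animals.

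The genes were also set against 4 other measures in each series, FABP4, SREBF1, ALB and the median intensity of the array, as 56 relations adjusted together. FABP4 had r from 0.768 to 0.946 with the 6 genes other than ACACA in S animals, and all 6 passed (permutation p from 6e-05 to 0.00857, adjusted p from 0.00336 to 0.0320). Their rho lay between 0.794 and 0.939, and r without the 2 animals farthest from the median between 0.640 and 0.916. In other animals r with FABP4 was 0.909 for PGD, 0.848 for ACLY and 0.745 for FASN, which passed (adjusted p = 0.00806, 0.00806 and 0.0297 by permutation), with r of 0.798, 0.720 and 0.538 without the 2 animals farthest from the median. By rho the relation with FASN did not pass (rho 0.661, adjusted p = 0.199 by permutation). It was 0.742 for THRSP, 0.687 for SCD and 0.677 for ACSS2, which did not (adjusted p = 0.0572, 0.0784 and 0.0867 by permutation). ACACA had r of -0.410 with FABP4 in S animals and -0.069 in other animals.

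SREBF1 encodes a transcription factor that drives lipogenic genes in liver and adipose tissue. By the brightest of its probe sets it had r from -0.349 to -0.071 with these 6 genes in S animals and from 0.311 to 0.535 in other animals, and none passed (lowest adjusted p = 0.660 and 0.282). Correlations of the other tested probe sets of SREBF1 with the genes were not computed. The median of the array had r from -0.216 to 0.125 in S animals and from 0.008 to 0.587 in other animals, with none past the threshold. ALB had r from 0.766 to 0.931 in S animals, all 6 past the threshold, but rho of 0.503 to 0.636 with none past it. Without the arrays with high ALB, r with ALB lay between -0.591 and -0.076 in the remaining S animals, while r with FABP4 lay between 0.601 and 0.950.

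Over all 20 arrays, with the mean of each title series subtracted, each gene was ranked against the other 14408 probe sets by Pearson r, as a description. Every pair of the 6 genes without ACACA ranked at 51 or better in both directions. SCD had FASN as its closest probe set of all (r = 0.910), and FASN had SCD at rank 2. ACACA ranked between 2928 and 10823 for the other 6. Among genes outside the 7, ATF5, a transcription factor, and TKT, transketolase of the pentose phosphate pathway, were among the 5 most similar for all 6, with r from 0.870 to 0.938 for ATF5 and from 0.837 to 0.919 for TKT. DGAT2, which makes triglycerides, was there for 5 of the 6, FASN, SCD, ACSS2, PGD and THRSP, with r from 0.878 to 0.910. CIDEC was the most similar to THRSP (r = 0.911), CIDEA to ACSS2 (r = 0.913) and the elongase gene ELOVL5 to ACLY (r = 0.913). ACACA had none of these, and was closest to IGSF23 (r = 0.803) and FOSL2 (r = 0.789), with POLR2B at the other end (r = -0.855). Over the 16 arrays without high ALB, 19 of the 30 ranks between the 6 genes were at 51 or better and the worst was 748, for ACSS2 in the ranking of PGD. ATF5 was then among the 5 most similar for 4 of the 6 (FASN, SCD, ACSS2 and THRSP), DGAT2 for SCD and ACSS2 and TKT for FASN. Their r with the genes named above lay between 0.740 and 0.922 for ATF5, 0.747 and 0.839 for DGAT2 and 0.630 and 0.847 for TKT. ACACA kept IGSF23 (r = 0.858) and FOSL2 (r = 0.844) as its closest.

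As lists, the tested genes of neighbouring steps had median IMF differences near 0. The lists mix genes of different roles and leave out those too dim to be tested, such as ELOVL6. Their medians therefore do not speak for single steps. Of 15 tested genes of precursor and NADPH supply 7 were higher and 8 lower in high IMF, with a median of -0.03. None had an unadjusted p under 0.05, and with the title series as covariate 1 was higher and 2 lower at that limit, as 2.03% and 5.3% of all probe sets were. TKT, the higher, averaged 8.47 ± 0.83 in high IMF and 7.95 ± 0.60 in low IMF (difference 0.52, SE 0.30), and by title series it differed by 0.83 in S animals and 0.20 in other animals. Without the arrays with high ALB the difference of TKT was 0.18 (SE 0.23), with the title series as covariate, and none of the 15 was below the limit. RPE, ribulose-phosphate epimerase of the same pathway, averaged 7.18 ± 0.81 in high IMF and 7.67 ± 0.48 in low IMF (-0.49, SE 0.28). ME3, a mitochondrial malic enzyme, averaged 5.82 ± 0.39 in high IMF and 6.18 ± 0.49 in low IMF (-0.36, SE 0.19). Between the title series 6 of the 15 rose and 4 fell in S animals, and these shares are near those of all probe sets (33.4% and 34.8%). Without the arrays with high ALB 5 rose and 4 fell, and the shares of all probe sets are not given here for that fit. SLC25A1, the citrate carrier, rose by 0.86 (SE 0.14), ACSS1, the mitochondrial acetyl-CoA synthetase, by 0.81 (SE 0.14) and PGLS, of the pentose phosphate pathway, by 0.61 (SE 0.10).

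Of 18 tested regulators of lipogenesis 10 were higher and 8 lower in high IMF, with a median of 0.00. INSIG1, which holds the SREBP proteins in the endoplasmic reticulum, was the only regulator with an unadjusted p under 0.05 without a covariate, and averaged 8.58 ± 0.84 in high IMF and 7.85 ± 0.53 in low IMF (difference 0.73, SE 0.29, 0.97 in S animals and 0.49 in other animals). SREBF2, a transcription factor of sterol synthesis, differed by 0.31 (SE 0.17) and MLX, a partner of the carbohydrate response factor, by -0.16 (SE 0.14). With the title series as covariate 2 regulators were higher at that limit, SREBF2 (p = 0.00314) and INSIG1 (p = 0.0106), and MLX was lower (p = 0.0334), all unadjusted from limma. Without the arrays with high ALB, SREBF2 differed by 0.45 (SE 0.09) and INSIG1 by 0.57 (SE 0.27), and SREBF2 alone was below the limit. SREBF1, by the brightest of its probe sets, averaged 11.32 ± 0.54 in high IMF and 11.28 ± 0.38 in low IMF, a difference of 0.04 (SE 0.20). Between the title series 15 of the 18 rose and 2 fell in S animals, where 33.4% and 34.8% of all probe sets did. SCAP, which escorts the SREBP proteins, rose by 1.19 (SE 0.10), USF2 by 1.18 (SE 0.11) and USF1 by 1.01 (SE 0.08), the USF genes coding for factors that bind the FASN promoter in rodents.

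Of 11 tested genes of elongation, desaturation and acyl-CoA handling 7 were higher and 4 lower in high IMF, with a median of 0.03 and none at an unadjusted p under 0.05. ELOVL5 averaged 7.55 ± 0.67 in high IMF and 7.10 ± 0.42 in low IMF (0.45, SE 0.24), and differed by 0.22 (SE 0.19) without the arrays with high ALB and with the title series as covariate. SCD5, a second stearoyl-CoA desaturase, lay on the other side from SCD, with 6.36 ± 0.67 in high IMF and 6.89 ± 0.67 in low IMF (-0.53, SE 0.28), and by title series it differed by -0.51 in S animals and -0.55 in other animals. Without the arrays with high ALB and with the title series as covariate SCD5 differed by -0.60 (SE 0.27, unadjusted p = 0.0392 by limma). The elongase gene ELOVL7 differed by -0.16 (SE 0.12). Between the title series 4 of the 11 rose and 1 fell, where 33.4% and 34.8% of all probe sets did, so that the share that rose is near that of all. Among those that rose were TECR, the last enzyme of the elongation cycle, 1.48 (SE 0.08) higher in S animals, the elongase gene ELOVL1 0.77 (SE 0.07) higher and CYB5R3, a reductase of the desaturation chain, 0.65 (SE 0.09) higher.

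**Figure D5:**
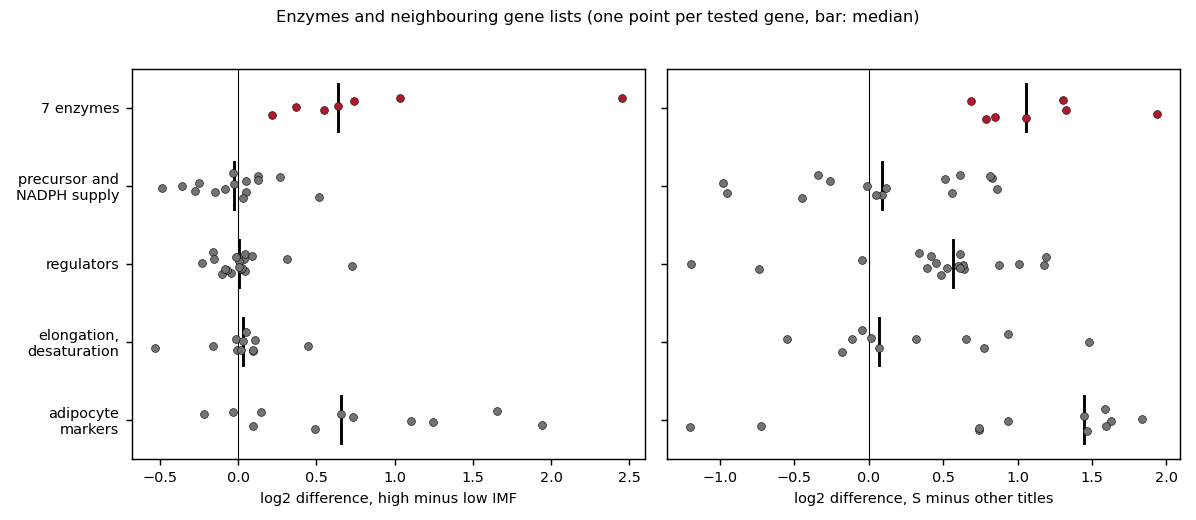
Log2 difference of high minus low IMF and of S minus other animals for the tested genes of each list (points, with the median as a bar). For high minus low IMF the 7 genes (labelled 7 enzymes, THRSP included) have a median of 0.64, against -0.03, 0.00 and 0.03 in the neighbouring lists and 0.66 in the adipocyte markers.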

How the data were processed

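The deposited values are linear intensities per probe set, made by the authors with GCOS 1.1.1 and Affymetrix Expression Console 1.1 per the submitters' processing notes (method of summarising probes not given in the sources used here). No detection calls were used. After 112 controls were removed from 24128 probe sets, the deposited intensities were taken as log2(intensity + 1) without further scaling, and the 40% with the lowest mean were left out, so that 14409 were tested. The platform annotation named a single gene for 13318 probe sets, more than 1 for 86 and no gene for 10724, and 13283 identifiers matched NCBI RefSeq with 0 symbols changed. No build is stated, so no coordinates are printed. The main probe set of a gene has its highest mean intensity.

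Groups were compared with limma 3.58.1 in R 4.3.3 (lmFit and eBayes, two-sided) over all tested probe sets, with Benjamini-Hochberg adjustment at 0.05, after the code was tested on simulated data. The series text names a paired test, but the labels pair no animals. Each bull has 1 array, so p-values measure the spread between bulls. Named genes are the 7 genes, the 3 of each list with the smallest p in each comparison, and the closest in pattern to each gene (up to 5 at the top and 2 at the bottom). FABP4, CIDEC, ADIPOQ, LEP, SREBF1 and ALB were named as markers or partners. Alternatives were a pseudocount of 16, no filter, quantile or median scaling, the title series as covariate, each series or IMF group alone, a plain test per probe set, and arrays left out. Leaving out 1 animal within a title series and the ranking without the arrays with high ALB were added after the data were seen. The genes, lists and tests were chosen with earlier results of these data known.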

Additional observations from a re-analysis of the deposited data

How the results depend on the processing

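High minus low IMF called 0 probe sets under every alternative run (14409 tested, or 24016 without the filter), by limma with 239 and by a plain unpaired test per probe set with 258 at an unadjusted p under 0.05. Members kept the sign of this difference in all alternatives but 1, for the main ACACA probe set. It stood at -0.0075 without the 4 arrays with high ALB and without a covariate, where the title series are uneven between the IMF groups. With the title series as covariate it differed by 0.30 (SE 0.14) without these arrays. Without these arrays the estimated interaction of IMF and title series turned to -0.60 for THRSP, -0.33 for FASN, 0.073 for ACACA, -0.0039 for ACLY and -0.31 for ACSS2, none of them called before or after, and the cause was not tested. For S minus other animals, 7 of 8 probe sets were called, 7 among high IMF animals alone and 4 among low IMF animals alone, and the cause was not tested. Leaving out each animal in turn gave 6 to 7 of 8 called and 9566 to 9811 called over all probe sets. Of pairs of genes called in S animals, 15 passed, and 9 without the arrays with high ALB, which leaves 7 animals. In other animals 8 passed, and 5 without the 2 animals farthest from the median. The r of ACACA in S animals changed sign, with 0.039 for ACLY without the farthest animals, and for SCD 0.155 without the arrays with high ALB and 0.088 with arrays centred on their medians. With each S animal left out in turn, chosen after the data were seen, it lay between -0.196 and 0.096 for ACLY and between -0.184 and 0.095 for SCD. Other scalings moved the median of all probe sets by under 0.1 in each comparison. No paired analysis was possible because the replicate numbers were given in accession order and pair no animals. The number of arrays and the lack of detection calls limit the precision at low intensities, such as the lowest of THRSP.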

Other observations

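The genes given here were chosen after their values were seen. ELOVL6, the elongase that extends palmitate, had a probe set too dim to be tested, with a mean of 3.49 ± 1.69 log2 units in high IMF animals and 1.82 ± 1.40 in low IMF animals (SD, n = 10 each). MID1IP1, a partner of THRSP that binds ACACA in mice, averaged 12.18 ± 0.27 in high IMF and 12.15 ± 0.32 in low IMF, and rose by 0.39 (SE 0.10) in S animals relative to other animals by limma (adjusted p = 0.00170). ME1, the cytosolic malic enzyme that supplies NADPH, averaged 8.25 ± 0.36 in high IMF and 8.12 ± 0.29 in low IMF and fell by 0.45 (SE 0.10, adjusted p = 0.000824) in S animals, opposite in sign to PGD.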
